A study of Mus musculus with 8 samples.

Results

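Core ER-associated degradation (ERAD) machinery was followed here as 10 transcripts in cultured mouse islets: Derl1, Derl2, Derl3, Edem1, Edem2, Edem3, Sel1l, Syvn1, Os9 and Herpud1. They were chosen by gene name as a functional set, without a threshold on any value but with earlier results of these data known. All 10 were found among the 27534 genes of the deposited table and among the 15442 genes that passed the filter on low counts. Islets, the hormone-secreting clusters of the pancreas, came from C57BL/6J mice and were kept for 72 h in RPMI medium with 10% serum. High glucose islets had 20 mM glucose (n = 4 libraries) and low glucose islets had 7.5 mM (n = 4 libraries), with no genetic change or other agent named for either group. RNA came from whole islets, so a transcript can come from any cell type in them, and fewer cells of a type cannot be told apart from less RNA per cell. The labels do not say that replicates came from separate animals or cultures, so p-values measure only the spread between these libraries, which may be technical.

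ERAD removes proteins that fail to fold in the endoplasmic reticulum (ER). Luminal factors pick out the failed protein, a membrane complex moves it back across the ER membrane and tags it with ubiquitin, and the ATPase p97 pulls it out for the proteasome. β cells make proinsulin in very large amounts, and misfolded proinsulin is a known substrate of the pathway. Transcription of several ERAD genes is known to be driven by XBP1 and ATF6, transcription factors of the unfolded protein response.

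Depth ran between 20516328 and 24905499 counts per high glucose library and between 19543045 and 24949515 per low glucose library. The share of counts from 8 β-cell markers was 20.4% to 25.4% under high and 19.4% to 25.4% under low glucose, and the α-cell hormone gene Gcg averaged 16930 CPM (the read count scaled to library depth, with TMM) in high and 19300 CPM in low glucose. Libraries numbered 2 stood apart from the rest: on the second principal component of log2 CPM, with 20.6% of the variance, they lay at 24.3 (high glucose) and 46.6 (low glucose), against -28.2 to 2.02 for the other 6. Same-number libraries of both groups deviated together, so calls from a fit with the replicate number as a block are given beside those that they change.

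Of the 10 transcripts, 8 rose in high glucose, none fell and 2 did not pass (edgeR quasi-likelihood test, Benjamini-Hochberg adjusted p below 0.05 over all genes tested). Of all 15442 tested genes, 13.1% were called higher and 11.9% lower. Even at an unadjusted edgeR p under 0.05, 0 of the 10 were lower. The count of 8 that rose and 0 that fell was also found by DESeq2 (14.7% of all genes higher), limma-voom (13.4%) and edgeR scaled by library size alone (10.4% higher, and 17.1% lower). The median log2 fold change, high over low glucose, was 0.515 for the members and -0.013 for all tested genes. The same 8 transcripts had no overlap between their high and low glucose libraries, which held for 13.7% of tested genes in that direction. With the replicate block all 10 rose, against 18.9% of tested genes, and without both libraries numbered 2 the count was 9, against 16.4% of tested genes.

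**Figure D1:**
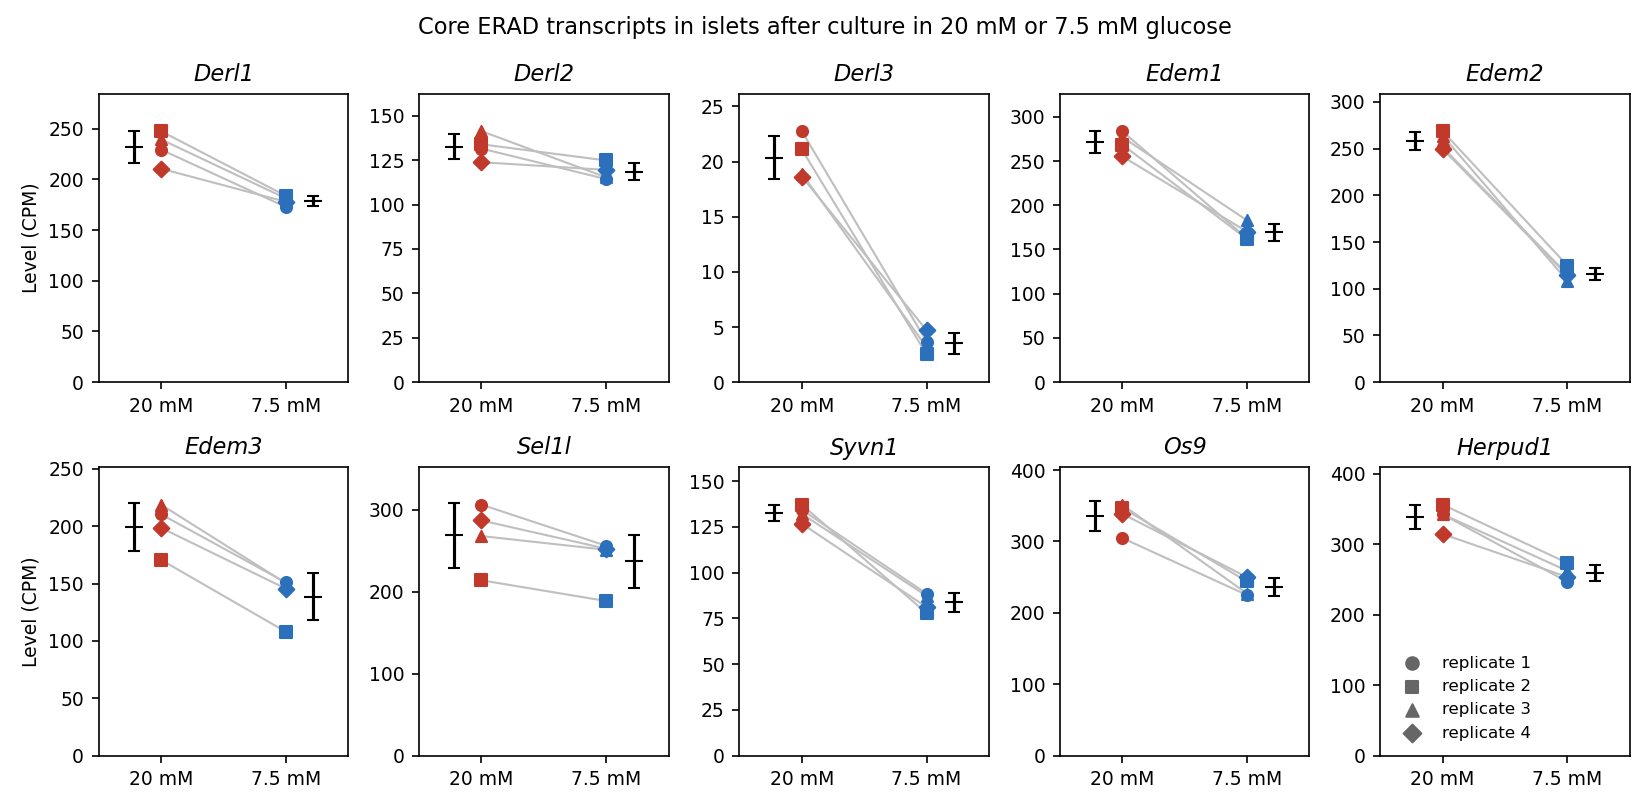
Level of each transcript in every library, in CPM on a linear axis from 0, with 20 mM libraries (red) left of 7.5 mM libraries (blue). Marker shapes give the replicate number, grey lines join libraries of the same number, and black bars are mean ± SD (n = 4 per group). Derl3 sits between 18.6 and 22.8 CPM in 20 mM and between 2.52 and 4.71 CPM in 7.5 mM, and only Derl2 and Sel1l overlap between groups.

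The promoters of 9 members were matched by symbol in RefSeq windows (GRCm38.p6, 250 bases before to 50 after each annotated start), and 3 of the 9 held an exact ER stress response element. This element, to which ATF6 and XBP1 are known to bind, was searched on both strands as CCAAT followed by CCACG after a gap of any 9 bases (ERSE), and as ATTGG followed by CCACG after a gap of any 1 base (ERSE-II). The strict ERSE stood in 0.119% of all 32851 windows and ERSE-II in 0.0365%. Derl3 and Syvn1 held the first and Herpud1 the second. The core TGACGTGG (UPRE, 0.676% of windows), the cyclic AMP element TGACGTCA (1.79%) and the C/EBP-ATF element TGATGNAAT (0.965%) were found in no member, while the short core CCACG, which both stress elements contain, was in a window of each of the 9 members and in 32.8% of all windows. The 250 bases before the start are shown for the 3 matches and for Edem2, the second largest rise, as a contrast without one. They run 5′ to 3′ on the strand of the gene, with the matched element in capitals.
Derl3 (chr10:75893148-75893397, plus strand): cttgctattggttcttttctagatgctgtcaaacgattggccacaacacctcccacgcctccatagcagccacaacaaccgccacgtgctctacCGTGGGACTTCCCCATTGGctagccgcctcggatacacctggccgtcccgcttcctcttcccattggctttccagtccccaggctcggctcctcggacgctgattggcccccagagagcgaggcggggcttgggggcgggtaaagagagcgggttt
Syvn1 (chr19:6046326-6046575, plus strand): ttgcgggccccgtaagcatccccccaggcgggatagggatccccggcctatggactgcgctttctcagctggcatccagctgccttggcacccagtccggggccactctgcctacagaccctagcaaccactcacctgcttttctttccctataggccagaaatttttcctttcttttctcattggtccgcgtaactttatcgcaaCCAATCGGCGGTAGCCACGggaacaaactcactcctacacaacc
Herpud1 (chr8:94386179-94386428, plus strand): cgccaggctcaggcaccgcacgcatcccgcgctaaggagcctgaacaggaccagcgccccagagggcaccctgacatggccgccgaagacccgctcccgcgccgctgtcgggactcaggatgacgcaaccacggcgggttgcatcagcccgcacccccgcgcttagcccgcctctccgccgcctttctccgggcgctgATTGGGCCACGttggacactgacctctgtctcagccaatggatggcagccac
Edem2 (chr2:155729476-155729725, minus strand): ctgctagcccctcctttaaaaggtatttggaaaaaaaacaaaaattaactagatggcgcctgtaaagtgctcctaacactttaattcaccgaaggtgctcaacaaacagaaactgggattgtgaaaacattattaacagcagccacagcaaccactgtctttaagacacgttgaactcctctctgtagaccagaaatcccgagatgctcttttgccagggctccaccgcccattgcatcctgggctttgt
In Derl3 the element lies on the opposite strand and begins 156 bases before the start. In Syvn1 and Herpud1 it lies on the strand of the gene and begins 44 and 52 bases before the start. The 3 members with an element ranged from the largest rise of the set (Derl3) to one of the smallest (Herpud1). Edem1, Edem2, Edem3 and Os9 rose without an exact match in these windows. Derl2 and Sel1l had no match either and did not pass, and Derl1, which rose, had no window. Of 49 genes with either element in any RefSeq window, 27 were tested, of which 14 rose and 0 fell in edgeR (median log2 fold change 0.39). Of all tested genes, 13.1% were called higher and 11.9% lower. The 49 genes include the 3 members, so this count is not separate from the rises described here. The part of the element in any rise was not tested. Besides the 3 members, 6 of the 49 genes belong to the pathway lists described further on: Hspa5, Hsp90b1, Calr, Canx, Dnajb11 and Dnajc3. A match is a description of letters and not a shown binding site.

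The mannosidase-like EDEM proteins and the lectin OS9 act first. EDEMs trim mannose from the glycan of a protein that stays unfolded, and OS9 binds the trimmed glycan and passes the protein to SEL1L. All 4 transcripts rose in high glucose, and Edem2 rose most.

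Edem2 (ENSMUSG00000038312, GRCm38 chromosome 2, 155701677 to 155729475, minus strand) was at 251, 269, 264 and 250 CPM in high glucose replicates 1 to 4, against 116, 125, 109 and 115 CPM in low glucose replicates 1 to 4. Every high glucose library lay far above every low glucose library, and the spread within groups was small, with a coefficient of variation of 3.63% in high and 5.83% in low glucose. The log2 fold change was 1.16 ± 0.07 (SE), a 2.23-fold rise, with adjusted p = 4.5e-06 in edgeR. Edem1 (ENSMUSG00000030104, chromosome 6, 108828641 to 108859356) had 284, 269, 277 and 255 CPM in high glucose and 163, 162, 183 and 170 CPM in low glucose. Its groups were likewise far apart, and it rose 1.60-fold (log2 0.68 ± 0.07 SE, adjusted p = 9.51e-05 in edgeR).

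Edem3 (ENSMUSG00000043019, chromosome 1, 151755371 to 151822051) had 210, 171, 219 and 199 CPM in high glucose and 151, 108, 150 and 146 CPM in low glucose. The library numbered 2 was the lowest in each group, so that high glucose replicate 2 came close to 3 low glucose libraries while its own same-number partner was far below it. Edem3 rose 1.44-fold (log2 0.52 ± 0.12 SE, adjusted p = 0.00894 in edgeR), and without both libraries numbered 2 the log2 fold change was 0.49. Os9 (ENSMUSG00000040462, chromosome 10, 127095650 to 127121131) had 305, 347, 352 and 339 CPM in high glucose and 225, 244, 227 and 250 CPM in low glucose. The groups did not overlap, and Os9 rose 1.42-fold (log2 0.50 ± 0.08 SE, adjusted p = 0.000815 in edgeR).

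Among the EDEMs the balance moved toward Edem2. Per length, in the authors' FPKM (fragments scaled to gene length and depth), Edem2 made up 50.5 ± 1.96% of the EDEM sum in high glucose and 41.2 ± 3.60% in low glucose (SD, n = 4 each). Edem1 made up 28.4 ± 0.75% in high and 32.2 ± 1.40% in low glucose, and Edem3 21.1 ± 1.88% in high and 26.6 ± 3.32% in low glucose. The summed FPKM of the family was 146 ± 5.25 in high and 79.4 ± 2.48 in low glucose. The FPKM ratio of Edem2 to Edem1 had a geometric mean of 1.78 in high and 1.27 in low glucose, higher in all 4 same-number pairs (exact permutation test, two-sided, p = 0.0286, the smallest that 4 against 4 allows, adjusted p = 0.0333 over 7 ratios tested). The ratio of Edem2 to Edem3 was 2.39 in high and 1.55 in low glucose (exact permutation p = 0.0286, adjusted p = 0.0333). For Edem1 to Edem3 the ratio was 1.35 in high and 1.22 in low glucose, with a log2 difference of 0.15 and overlap between groups (exact permutation p = 0.286, adjusted p = 0.286). That ratio too was higher in all 4 same-number pairs, and its exact sign-flip test with the replicate block gave p = 0.125, the smallest that 4 pairs allow and the value of all 7 ratios. Without any one high glucose library the ratio of Edem2 to Edem3 had an adjusted p of 0.0667, and without high glucose replicate 2 or 3 that of Edem2 to Edem1 had one of 0.05. A ratio within a library does not depend on how libraries are scaled.

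Derlins are multispanning ER membrane proteins, relatives of rhomboid proteases without their activity, that help to move substrates out of the ER lumen. Derl3 showed the largest change of the set, Derl1 rose moderately, and Derl2 did not pass. Derl3 (ENSMUSG00000009092, chromosome 10, 75893413 to 75895941) had 22.8, 21.1, 18.9 and 18.6 CPM in high glucose and 3.68, 2.52, 3.17 and 4.71 CPM in low glucose. The lowest high glucose library was thus still several times above the highest low glucose library. Derl3 rose 5.76-fold (log2 2.52 ± 0.17 SE, adjusted p = 8.21e-06 in edgeR), on 401 to 473 counts in high and 47 to 98 counts in low glucose, and its low glucose level had the widest relative spread of the set (coefficient of variation 26.2%).

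Derl1 (ENSMUSG00000022365, chromosome 15, 57869502 to 57892448) had 229, 248, 240 and 211 CPM in high glucose and 173, 184, 181 and 178 CPM in low glucose. High glucose replicate 4 was the lowest of its group and still above every low glucose library. Derl1 rose 1.29-fold (log2 0.37 ± 0.07 SE, adjusted p = 0.00343 in edgeR). Derl2 (ENSMUSG00000018442, chromosome 11, 71007164 to 71019841) had 132, 134, 141 and 124 CPM in high glucose and 114, 125, 115 and 120 CPM in low glucose. High glucose replicate 4 lay just under low glucose replicate 2, so the groups overlapped. The log2 fold change of Derl2 was 0.16 ± 0.07 (SE) with adjusted p = 0.109 in edgeR. It was called with the replicate block (log2 0.16, adjusted p = 0.0447), without both libraries numbered 2 (adjusted p = 0.0466) and without low glucose replicate 2 alone (adjusted p = 0.0441). Derl2 shares 231 exonic bases with Mis12 on the opposite strand, and with the strand setting not given in the sources used here its counts (2331 to 3062 per library, against 504 to 858 for Mis12) are uncertain to that extent.

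Derl1 stayed the main derlin per length in all 8 libraries, while Derl3 took a larger part in high glucose. Derl3 made up 10.6 ± 0.92% of the derlin FPKM in high and 2.52 ± 0.68% in low glucose (SD, n = 4 each). Derl1 made up 72.3 ± 0.84% in high and 76.5 ± 0.72% in low glucose, and Derl2 17.1 ± 0.61% in high and 20.9 ± 0.49% in low glucose. Their summed FPKM was 95.3 ± 5.80 in high and 68.5 ± 1.84 in low glucose. These shares depend on the gene lengths in the deposited table, 3328 bases for Derl1, 8049 for Derl2 and 1993 for Derl3. In CPM, which ignores length, the high glucose means were 232 for Derl1, 133 for Derl2 and 20.35 for Derl3. In low glucose they were 179, 119 and 3.52 CPM in the same order. The FPKM ratio of Derl3 to Derl2 was 0.618 in high and 0.117 in low glucose, and that of Derl3 to Derl1 was 0.146 in high and 0.032 in low glucose. Even Derl1 and Derl2 differed in response, with a ratio of 4.22 in high and 3.65 in low glucose. Each of these ratios was higher in all 4 pairs and had no overlap between groups (exact permutation p = 0.0286, adjusted p = 0.0333 over the 7 ratios), with an adjusted p of 0.05 without high glucose replicate 2 or 3.

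**Figure D2:**
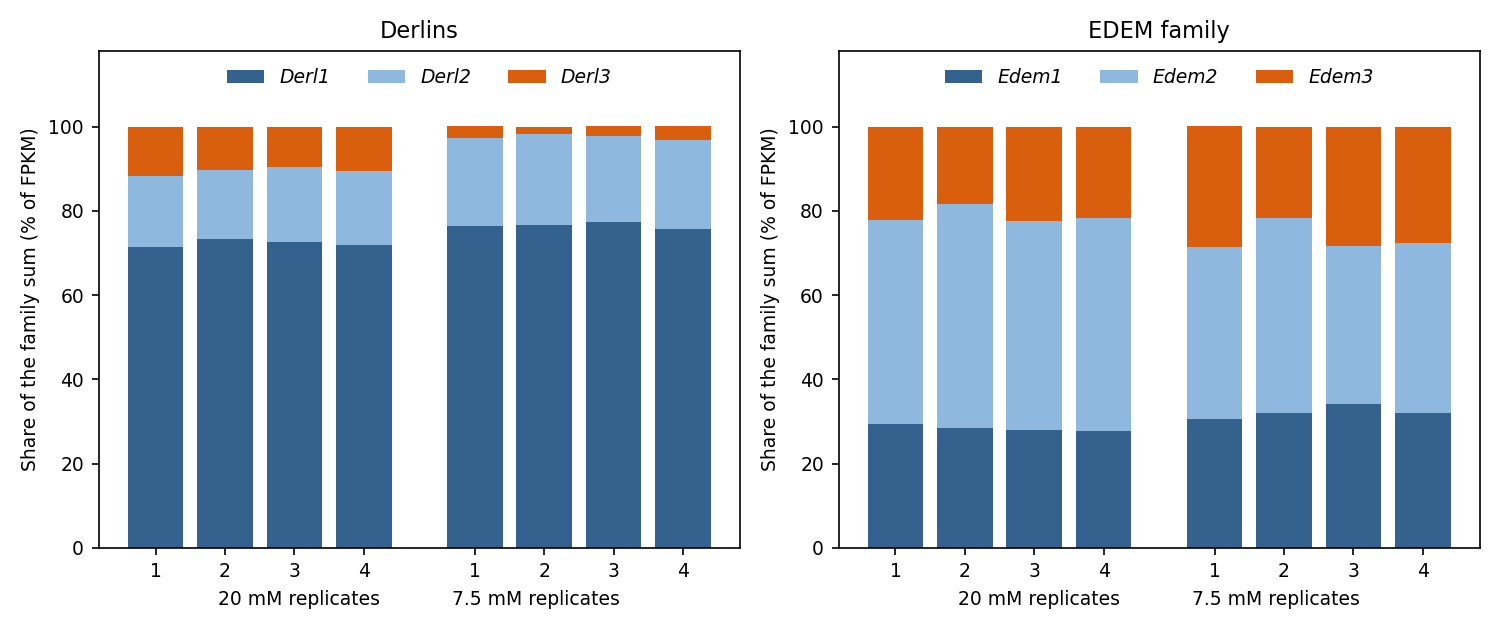
Share of each derlin (left) and each EDEM (right) in the FPKM sum of its family, in percent, for every library, with 20 mM replicates left of 7.5 mM replicates. Derl3 takes 9.58% to 11.8% in 20 mM and 1.75% to 3.34% in 7.5 mM, and Edem2 takes 48.5% to 53.2% in 20 mM and 37.6% to 46.2% in 7.5 mM.

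Derl3 is also a transcript of other secretory cells, so markers of those cells are set beside it. The 17 acinar markers, led by the chymotrypsinogen gene Ctrb1, summed to 10310, 3534, 3654 and 19020 CPM in high glucose and 7936, 3301, 1264 and 10880 CPM in low glucose. None of the 16 tested passed in edgeR, DESeq2 or limma-voom, and 0 had an unadjusted edgeR p under 0.05. With the replicate block 10 rose, in a fit that called 18.9% of tested genes higher and 18.5% lower. The acinar sum was higher in high glucose in all 4 same-number pairs. Across numbers, high glucose replicates 2 and 3 had lower acinar sums than low glucose replicates 1 and 4, with Derl3 at 21.1 and 18.9 CPM in the high and 3.68 and 4.71 CPM in the low glucose libraries. With the acinar sum as a covariate, the log2 fold change of Derl3 was 2.48 (adjusted p = 1.2e-05 in edgeR), and 8 members rose, against 12.3% of tested genes. The acinar sum was measured in the same libraries, after culture, so this fit cannot separate it from glucose. The part of acinar cells in the Derl3 rise was not tested. The 8 plasma and B cell markers, led by Ighm, summed to 797, 144, 21.97 and 58.5 CPM in high glucose and 97.9, 152, 21.1 and 45.7 CPM in low glucose. The sum was higher in high glucose in 3 of 4 same-number pairs, and high glucose replicate 1 stood far above the rest. Of the 5 tested markers 0 rose and 1 fell in edgeR, while the fit with the replicate block called 3 higher (Jchain, Igkc and Sdc1) and 1 lower. The plasma cell gene Mzb1, which did not pass the filter on low counts, was at 1.08 ± 0.99 CPM under high and 0.293 ± 0.281 CPM under low glucose. Without high glucose replicate 1, the log2 fold change of Derl3 was 2.46 (adjusted p = 6.4e-05 in edgeR). The part of plasma and B cells in the Derl3 rise was not tested either.

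**Figure D3:**
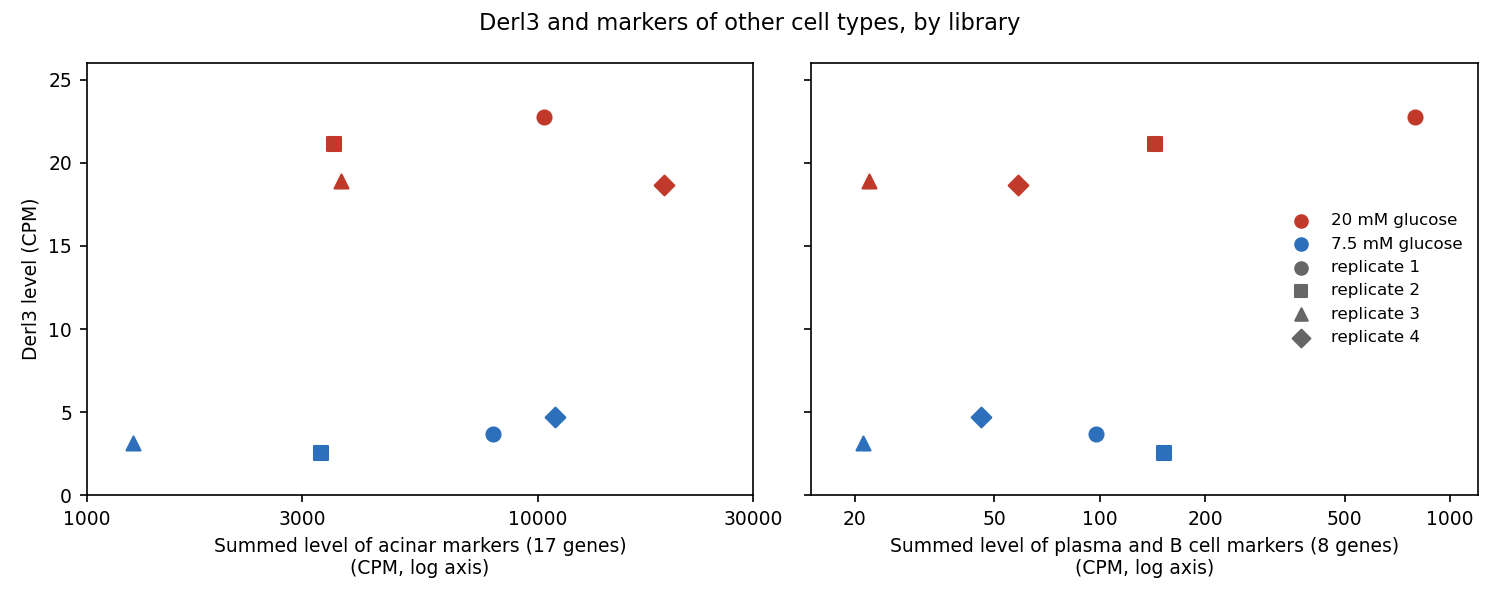
Derl3 level (CPM, linear axis) against the summed level of 17 acinar markers (left) and of 8 plasma and B cell markers (right) in each library (CPM, log axes), with 20 mM libraries in red and 7.5 mM libraries in blue. Derl3 lies between 18.6 and 22.8 CPM in 20 mM and between 2.52 and 4.71 CPM in 7.5 mM. The part of either cell type in the Derl3 level was not tested.

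Markers of other cell types and of β cells were read in the same way. In edgeR 13.1% of all tested genes were called higher and 11.9% lower, and with the replicate block 18.9% and 18.5%. High glucose replicate 1 had a summed level of 1114 CPM for 8 fibroblast and stellate markers, led by Col1a1, with 135 to 297 CPM in the other high glucose libraries and 105 to 300 CPM in low glucose. The 6 endothelial markers, led by Kdr, summed to 19.9 to 28.2 CPM under high and 24.0 to 29.9 CPM under low glucose. The 7 macrophage markers, led by Lyz2, summed to 220 to 324 CPM under high and 255 to 409 CPM under low glucose. No marker of these 3 lists passed in edgeR, DESeq2 or limma-voom, and 1 fibroblast, 1 endothelial and 0 macrophage markers were higher at an unadjusted edgeR p under 0.05. With the replicate block 2 macrophage markers, C1qa and C1qb, fell. Of the δ-cell markers, Sst and Hhex, 0 passed in edgeR and DESeq2 and 1 in limma-voom, with 1 higher at an unadjusted p under 0.05, and the PP-cell marker Ppy passed in none. Without low glucose replicate 2, 1 endothelial and 1 δ-cell marker were called. Of 7 ductal markers, led by Krt7, 1 rose and 1 fell, and none rose without any one of 6 libraries (each high glucose library and low glucose replicates 1 and 4). Of 4 α-cell markers 1 rose, and it did not pass when any one of low glucose replicates 1, 3 and 4 or high glucose replicate 2 was left out. Of the 8 β-cell markers 3 fell and 1 rose. Ucn3 fell 1.74-fold, Slc2a2 1.44-fold and Mafa 1.38-fold, while Iapp rose 1.63-fold. With the replicate block 3 ductal, 1 δ-cell and 2 β-cell markers rose. The part of any of these in the members' changes was not tested.

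The membrane ligase complex consists of HRD1, the ubiquitin ligase that Syvn1 encodes, its adaptor SEL1L, and HERP, the ubiquitin-like protein of Herpud1 that helps to assemble it. Syvn1 and Herpud1 rose, whereas Sel1l differed by less than its spread between libraries. Syvn1 (ENSMUSG00000024807, chromosome 19, 6046576 to 6053712) had 134, 137, 132 and 127 CPM in high glucose and 88.5, 77.8, 87.3 and 81.1 CPM in low glucose. The groups were far apart, and the coefficient of variation was only 3.31% in high glucose. Syvn1 rose 1.58-fold (log2 0.66 ± 0.07 SE, adjusted p = 8.17e-05 in edgeR). It shares 91 exonic bases with Mrpl49 on the opposite strand, a gene with 437 to 596 counts per library against 1452 to 3134 for Syvn1, and reads in that stretch cannot be assigned without the strand setting.

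Herpud1 (ENSMUSG00000031770, chromosome 8, 94386438 to 94395377) had 343, 356, 343 and 315 CPM in high glucose and 247, 274, 262 and 254 CPM in low glucose. It rose 1.31-fold without overlap (log2 0.39 ± 0.07 SE, adjusted p = 0.00262 in edgeR). Sel1l (ENSMUSG00000020964, chromosome 12, 91806043 to 91849157) had 306, 214, 268 and 287 CPM in high glucose and 256, 189, 251 and 252 CPM in low glucose. Libraries numbered 2 were lowest in both groups, and high glucose replicate 2 lay below 3 of the 4 low glucose libraries. The log2 fold change of Sel1l was 0.18 ± 0.13 (SE) with adjusted p = 0.348 in edgeR. Within same-number pairs, the log2 difference was between 0.09 and 0.26 and positive in all 4, and with the replicate block Sel1l was called (log2 0.18, adjusted p = 0.0188). Without both libraries numbered 2, its adjusted p was 0.0591.

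The ligase and its adaptor differed in response. The FPKM ratio of Syvn1 to Sel1l had a geometric mean of 0.892 in high and 0.637 in low glucose, a log2 difference of 0.49 (exact permutation test, two-sided, p = 0.0286, adjusted p = 0.0333 over the 7 ratios). It was highest in high glucose replicate 2, where Sel1l was low, and without that library the log2 difference was 0.36 and the adjusted p 0.0667, while without high glucose replicate 3 these were 0.49 and 0.0667. The highest low glucose library was again the one numbered 2, and no ratio of one group reached into the other.

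**Figure D4:**
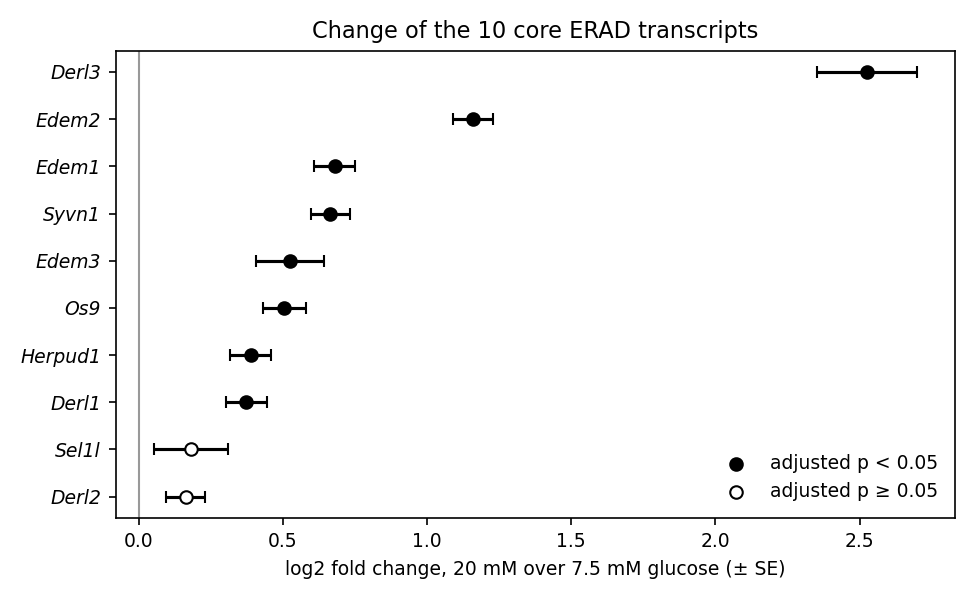
log2 fold change of each of the 10 transcripts, 20 mM over 7.5 mM glucose, with its standard error (edgeR, 4 libraries per group). Filled points passed the adjusted p of 0.05 and open points did not, and the values run from 0.16 for Derl2 to 2.52 for Derl3.

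Per length, the 10 transcripts spanned a wide range of levels. The order depends on the gene lengths in the deposited table, from 1993 bases for Derl3 to 8049 for Derl2 and 8555 for Sel1l. In high glucose the authors' FPKM was 144 ± 7.23 for Herpud1, 126 ± 8.32 for Os9, 73.9 ± 2.73 for Edem2, 68.9 ± 4.72 for Derl1 and 41.6 ± 1.95 for Edem1 (SD, n = 4). Sel1l at 31.1 ± 4.64 and Edem3 at 31.0 ± 3.41 did not differ beyond their spread, and Syvn1 at 27.5 ± 0.84 lay within the spread of Sel1l. Derl2 at 16.3 ± 0.95 and Derl3 at 10.1 ± 0.93 were lowest. In low glucose the order was Herpud1 (108 ± 4.67), Os9 (87.8 ± 5.14), Derl1 (52.5 ± 1.43), Edem2 (32.6 ± 1.86), Sel1l (27.02 ± 3.75), Edem1 (25.6 ± 1.52), Edem3 (21.2 ± 3.18), Syvn1 (17.1 ± 1.00), Derl2 (14.4 ± 0.61) and Derl3 (1.72 ± 0.47). There Sel1l and Edem1 did not differ beyond their spread. The mean of Edem2 thus stood above that of Derl1 in high glucose and below it in low glucose. Against all tested genes, the mean FPKM of Herpud1 lay at the 98.5th percentile and that of Derl3 at the 60.6th.

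Profiles over the 8 libraries were compared by the root mean square difference of log2 CPM, each gene centred on its own mean. The most alike members were Derl1 and Herpud1, with a difference of 0.03, followed by Edem1 and Syvn1 with 0.07. Among 10388 other protein-coding genes of at least 5 CPM, the profiles nearest to Edem2 were those of Cyb561, an electron carrier of secretory granules (0.05), Mogs, the first glucosidase of glycan trimming (0.06), and Cmas, which activates sialic acid (0.06). Nearest to Syvn1 were Tmem214 (0.05), Incenp, a part of the chromosomal passenger complex (0.06), and Armcx3 (0.06). Derl3 had no neighbour as close, its nearest being Txnip, an inhibitor of thioredoxin (0.21), Apcdd1 (0.25) and the transcription factor gene Etv5 (0.26). These are descriptions over 8 libraries that share 2 glucose concentrations, and any gene with a similar fold change scores well.

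The other genes of the pathway were described by lists, beside the 13.1% of all tested genes that were called higher and the 11.9% called lower. Of 18 luminal chaperones and glycan enzymes that prepare substrates, 12 rose and 1 fell, with a median log2 fold change of 0.66. Dnajb11, a BiP co-chaperone, rose 2.08-fold to 193 ± 3.99 CPM under high glucose, against 92.6 ± 6.00 CPM under low glucose (adjusted p = 6.14e-06 in edgeR). Dnajc3, another co-chaperone, rose 1.86-fold (731 ± 11.3 CPM under high and 393 ± 4.91 CPM under low glucose). Man1c1, a Golgi α-mannosidase, fell 1.34-fold (49.4 ± 5.22 CPM under high and 66.3 ± 5.21 CPM under low glucose, adjusted p = 0.00612 in edgeR), and 2 members fell without low glucose replicate 2.

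Of 14 partners of the HRD1 complex and its ubiquitin-conjugating enzymes, 6 rose, 1 fell and 7 did not pass, with a median log2 fold change of 0.17, and 7 rose with the replicate block. Txndc11, a thioredoxin-domain protein that works with EDEMs, rose 1.61-fold (125 ± 5.37 CPM under high and 78.0 ± 3.43 CPM under low glucose, adjusted p = 5.33e-05 in edgeR). Erlec1, a lectin like OS9, rose 1.52-fold (137 ± 8.73 CPM under high and 90.1 ± 6.65 CPM under low glucose). Svip, a small inhibitor of ERAD that binds p97 and derlins, fell 1.31-fold to 58.9 ± 8.37 CPM under high glucose, against 77.3 ± 6.66 CPM under low glucose (adjusted p = 0.0219 in edgeR). Herpud2, the relative of Herpud1, had a log2 fold change of 0.07 ± 0.07 (SE, adjusted p = 0.56 in edgeR), and is named here after its value was seen.

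Of 30 genes of p97 and the cytosolic steps, 9 rose and 3 fell (median log2 fold change 0.09). The 3 that fell are close to the share of all genes called lower. Vcp, which encodes p97 itself, rose 1.48-fold to 486 ± 13.9 CPM under high glucose, against 327 ± 11.9 CPM under low glucose (adjusted p = 0.000184 in edgeR). Nploc4, a substrate-binding cofactor of p97, rose 1.44-fold (135 ± 5.25 CPM under high and 93.7 ± 3.35 CPM under low glucose). The p97 cofactor gene Ubxn6 and the deubiquitinase gene Yod1 fell 1.24-fold and 1.30-fold (adjusted p = 0.0372 and 0.0381 in edgeR). The count of 3 that fell was 0 or 1 without any one library other than low glucose replicate 2, without the filter on low counts and with the acinar covariate. By scaling, it was 1 with upper quartile, 2 with DESeq2 size factors in edgeR and 5 with library size alone. The fit with the replicate block called 14 higher and 4 lower, against 18.9% and 18.5% of all tested genes.

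Of 18 other ER ligases and accessory membrane proteins, 5 rose and 1 fell, with a median log2 fold change of 0.09. Hm13 (listed as H13), which encodes signal peptide peptidase, rose 2.21-fold to 272 ± 6.69 CPM under high glucose, against 123 ± 3.69 CPM under low glucose (adjusted p = 2.86e-06 in edgeR). Tmub2 rose 1.30-fold (52.6 ± 2.5 CPM under high and 40.5 ± 3.33 CPM under low glucose). Erlin2, a scaffold of an ER complex that degrades inositol trisphosphate receptors, fell 1.41-fold (75.6 ± 3.57 CPM under high and 107 ± 2.38 CPM under low glucose, adjusted p = 0.000298 in edgeR). Without low glucose replicate 2, 8 rose and 2 fell, and the fit with the replicate block called 7 higher and 1 lower.

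Of 10 sensors and transcription factors of the unfolded protein response, 4 rose and none fell, with a median log2 fold change of 0.12. Atf4, the transcription factor downstream of PERK, rose 1.45-fold (421 ± 31.5 CPM under high and 291 ± 28.8 CPM under low glucose, adjusted p = 0.00178 in edgeR). Xbp1 rose 1.28-fold (389 ± 16.0 CPM under high and 303 ± 16.9 CPM under low glucose, adjusted p = 0.00418 in edgeR). The count that rose was 2 when either high glucose replicate 3 or low glucose replicate 1 was left out, and the fit with the replicate block called 5 higher and 2 lower. DESeq2 and limma-voom called 0 of this list lower, edgeR with library size alone called 2 lower and 3 higher, and 2, Ddit3 and Mbtps1, were lower at an unadjusted edgeR p under 0.05. The spliced form of Xbp1 is not told apart in a gene-level count.

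**Figure D5:**
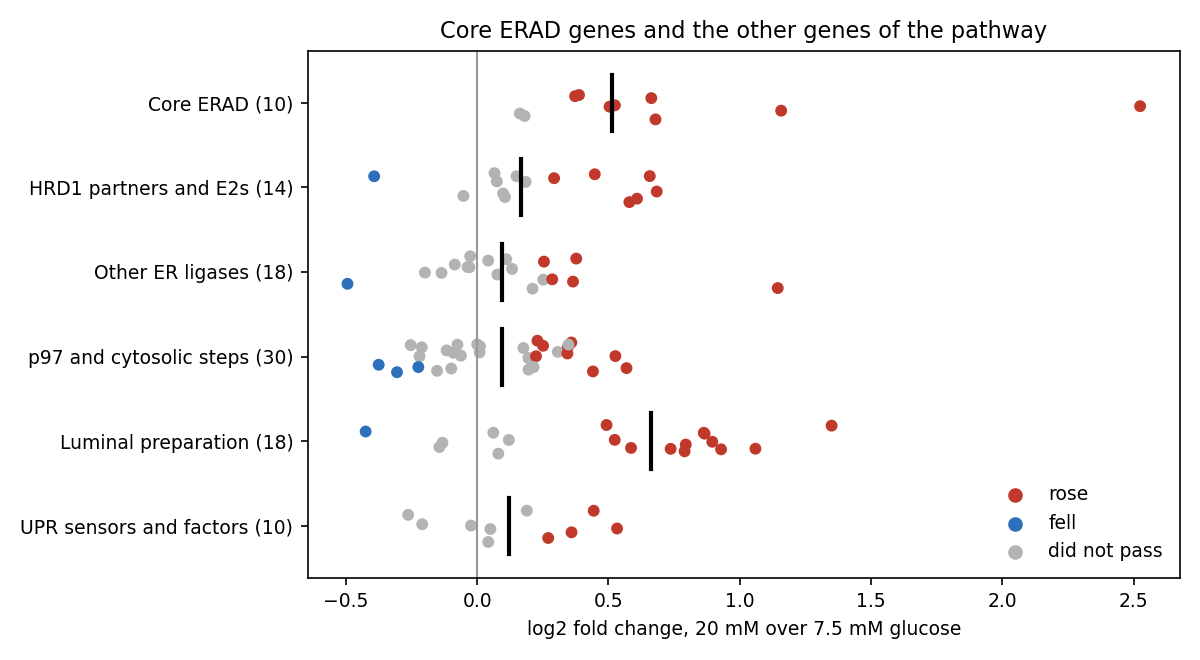
log2 fold change, 20 mM over 7.5 mM glucose, of every tested gene in the core ERAD set and in 5 lists of the pathway, 1 point per gene, coloured by whether it rose, fell or did not pass in edgeR. Black lines are medians, 0.52 for the core set, 0.66 for luminal preparation and 0.09 to 0.17 for the other 4 lists.

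The authors' deposited table gives the same picture for the members, with log2 fold changes between 0.17 for Derl2 and 2.53 for Derl3, and adjusted p of 0.0893 for Derl2 and 0.347 for Sel1l. In the other 8 its adjusted p was at most 0.00027.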

How the data were processed

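Bulk RNA was measured in 8 islet libraries, 4 per glucose concentration. Nothing in the deposited table was re-aligned: reads were aligned with STAR 2.5, counted with HTSeq 2 and compared with DESeq2 on mm10 (GRCm38), per the submitters' processing notes, which give no strand setting. The deposited table holds raw read counts per gene, a signal column that is each count divided by a size factor, FPKM made by the authors, and the authors' log2 fold changes and p-values. Totals were 19543045 to 24949515 counts per library, so a floor of 3 counts is 0.114 to 0.161 CPM, which covers counting error only.

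From the counts, CPM scaled by TMM and tests were computed with edgeR 4.0.16 in R 4.3.3 (glmQLFit and glmQLFTest, glucose as the only term, filterByExpr with a minimum count of 10 and a total of 15, Benjamini-Hochberg over 15442 genes, threshold 0.05). The deposited FPKM were used for levels between genes and for 7 ratios within families or complexes, tested by exact permutation over libraries. On simulated counts for high against low glucose (15239 genes tested) the test recovered 49.3% of genes set to a 1.5-fold difference, 81.8% at 2-fold and 96.8% at 4-fold, with 8 false among 156 calls. That simulation changed only 67, 67 and 66 genes at these folds and held no replicate effect. In the data 3854 genes were called, so the p that passes adjustment differs and these shares do not give the recovery there. Libraries were compared for repeats, and none agreed within sampling noise (lowest chi-square per gene 14.3).

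Groups came from the sample titles. The labels do not say what a replicate number stands for. Same-number libraries of both groups deviated together, with correlations of 0.101, 0.449, 0.404 and 0.475, against -0.367 to 0.207 for other pairs, so counts from a fit with the number as a block are printed beside those that it changes. Alternatives were DESeq2 1.42.0, limma-voom (limma 3.58.1), library size, upper quartile or DESeq2 size factors for scaling, no filter, an acinar covariate, a pseudocount of 1 on CPM for ratios, and each library left out.

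The members, gene lists, promoter motifs and tests were chosen with earlier results of these data known. The text names all members, up to 2 genes that rose and 2 that fell with the smallest adjusted p in each pathway list, the most abundant gene of each marker list, and for the 3 members with the smallest adjusted p the 3 protein-coding genes of at least 5 CPM with the nearest profile (log2 CPM, prior count 2). Some further list genes, such as Mzb1, Cd79a, C1qa, Ddit3, Mbtps1 and the β-cell markers that passed, are named outside this rule, with their values known. Promoter sequences are RefSeq's (GRCm38.p6).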

Additional observations from a re-analysis of the deposited data

Results flagged for a closer look

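In 66 groups of 4 libraries, the levels of single members, their ratios and the list sums were searched for a library far from the other 3, and 5 were found, where chance gives about 1 in 20 groups. In 2 members it was low glucose replicate 2 that lay lowest: Edem3 was at 108 CPM there, against 146 to 151 CPM in the other low glucose libraries, and Sel1l at 188.5 CPM, against 251 to 256 CPM. The same library had the highest sum of the HRD1 partner list, 1174 CPM against 1021 to 1040 CPM in the others.

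High glucose replicate 1 had the highest sum of the fibroblast and stellate markers, 1114 CPM against 135 to 297 CPM, and of the plasma and B cell markers, 797 CPM against 21.97 to 144 CPM in the other high glucose libraries.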

How the results depend on the processing

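Each member kept its direction under all 17 alternatives. Of 170 alternative values for single members, 4 changed the call, and each added one (Derl2 and Sel1l with the replicate block, adjusted p = 0.0447 and 0.0188 in edgeR, and Derl2 without both libraries numbered 2 or without low glucose replicate 2). The count of members that rose was 8 to 9 with 1 library left out and 10 with the replicate block, and no member fell in any alternative. Genes changed over the whole table numbered 3015 to 5132 with 1 library left out, of which 1617 to 2656 were higher and 1382 to 2476 lower. The most came without low glucose replicate 2. With the replicate block 2862 genes were lower, against 1831 without it, and the cause was not tested. With library size alone, 37.8% of changed genes were higher, against 52.5% with TMM, and the median log2 fold change of all genes was -0.09, against -0.01.

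Of 70 alternative ratios, 20 no longer passed. With the replicate block (exact sign-flip permutation over 4 pairs, smallest p 0.125) the log2 differences were 2.19 for Derl3 to Derl1, 2.40 for Derl3 to Derl2, 0.21 for Derl1 to Derl2, 0.48 for Edem2 to Edem1, 0.63 for Edem2 to Edem3 and 0.49 for Syvn1 to Sel1l, each with an adjusted p of 0.125. With 1 library left out they were 2.03 to 2.35, 2.23 to 2.55, 0.18 to 0.23, 0.41 to 0.54, 0.53 to 0.78 and 0.36 to 0.56 in the same order, and 14 of these tests did not pass, all of them without a high glucose library. Counts in the pathway and marker lists moved by over 1.5 times in 49 of 510 alternatives, and no ratio changed sign. Depth limits Derl3 most, with 47 to 98 counts per low glucose library.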
